A study of Mus musculus with 4 samples.

Results

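Mouse embryonic stem cells without Prdm14 that carried PRDM14 and its co-repressor CBFA2T, both from sea urchin, were compared with the same kind of cells carrying an empty vector. The comparison took every probe set of the array that the platform annotation pairs with 1 gene symbol, which was 23521 of 41345 probe sets. These gave 22180 genes, each read from its brightest probe set, and 12042 of them were kept. A gene was kept when the highest of its values on 4 arrays reached 4.84 on the log2 scale, which is the median value of the named probe sets. Genes with a high value on a single array were thus kept through that array.

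The series holds 4 arrays analysed here, with 1 array for each group: sea urchin PRDM14 with sea urchin CBFA2T, sea urchin PRDM14 alone, mouse PRDM14, and the empty vector. The cells of all 4 groups lacked Prdm14 and were cultured in 2i medium with LIF on STO feeder cells, an established mouse fibroblast line, so feeder RNA can be part of every sample. No source used here says whether each group was a clone or a pool of cells. Biotin-labelled total RNA was hybridised to arrays of strip 2. The differences therefore have no replicate check, and no test was made; the number of arrays limits the precision of every value below.

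PRDM14 is a protein with a PR domain and zinc fingers that binds DNA, and in mice it is known for keeping embryonic stem cells in the naive state and for the founding of germ cells. It works through partner proteins, among them CBFA2T2, a member of the CBFA2T (MTG) family of co-repressors, which bind DNA-binding proteins and recruit histone deacetylases. A small and changing share of mouse embryonic stem cells passes through a state that resembles the embryo at the 2-cell stage, in which genes such as Zscan4, Usp17l and Tcstv are switched on.

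The largest differences lay in genes on a list of the 2-cell stage, which was made with earlier results of these data known. Of 12042 genes, 19 were at least 2-fold higher with both sea urchin proteins than with the empty vector, which is 0.158 percent, and 6 were at least 2-fold lower, which is 0.0498 percent, or 25 genes and 0.208 percent in all. Of the 5 measured Zscan4 genes, 4 were among the higher genes, at 4.48-fold to 19-fold. Zscan4b, Zscan4d and Zscan4e passed the filter only through the array with both proteins. The lower genes included the secreted peptide Apela, the Wnt-binding protein Sfrp1 and the hormone precursor Trh, at 2.89-fold to 3.53-fold. Most genes lay close to equal levels, since the log2 difference over all kept genes had a median of 0.01 and an SD across genes of 0.20. Of all kept genes, 51.6 percent differed by more than 0.

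**Figure D1:**
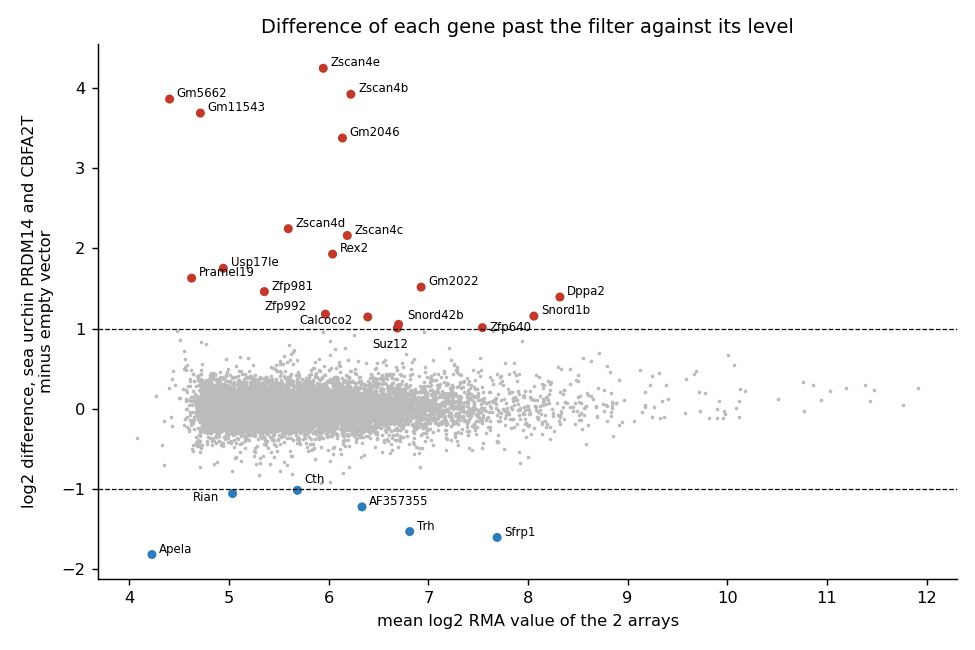
Each point is 1 of the 12042 kept genes, with the mean log2 RMA value of the 2 arrays on the x axis and the log2 difference, sea urchin PRDM14 and CBFA2T minus empty vector, on the y axis. Dashed lines mark 2-fold; the 19 higher genes (red) reach 4.25 and the 6 lower genes (blue) reach -1.82, while the grey points lie within 1 of zero.

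Zscan4 genes encode zinc finger proteins with a SCAN domain that mark the 2-cell-like state and are known for a part in telomere maintenance. Of the genes named here, RefSeq classes Zscan4e as a pseudogene. Zscan4e had a log2 value of 8.07 with both sea urchin proteins, 3.49 with sea urchin PRDM14 alone and 3.64 with mouse PRDM14, against 3.82 with the empty vector. Zscan4b stood at 8.18 with both proteins, 4.04 with sea urchin PRDM14 and 4.56 with mouse PRDM14, against 4.26 with the empty vector. Both genes were thus high on 1 array and below the filter value on the other 3. Their differences were 4.25 (19-fold) for Zscan4e and 3.93 (15.2-fold) for Zscan4b.

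Zscan4d read 6.72 with both proteins, 4.39 with sea urchin PRDM14 and 4.62 with mouse PRDM14, against 4.47 with the empty vector, a difference of 2.25 (4.75-fold). Zscan4c read 7.27, 5.36 and 5.67 in the same order of arrays, against 5.10 with the empty vector, a difference of 2.16 (4.48-fold). Zscan4a was the member that stayed within 2-fold, at 7.52 with both proteins, 6.93 with sea urchin PRDM14 and 7.11 with mouse PRDM14, against 7.06 with the empty vector. On all 5 probe sets the array with both proteins was the highest of the 4. The Zscan4 genes are near-identical copies, so their probes may read one another's transcripts, and the values of single members are uncertain. In RNA from many cells at once, more cells that express Zscan4 and more Zscan4 RNA per cell cannot be told apart.

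The promoters of 3 Zscan4 genes were in the RefSeq table used here, and their 150 bases before the transcription start are shown because these genes had among the largest differences and share their upstream sequence. They lie on chromosome 7 of GRCm38.p6, Zscan4b at chr7:10905051-10905200 on the minus strand, Zscan4c at chr7:11005595-11005744 on the plus strand and Zscan4d at chr7:11166149-11166298 on the minus strand. Capitals mark a match on the opposite strand to TGATT, any 2 bases and ATCA, the core letters of a double homeodomain motif, and then a TATAAA box.
Zscan4b: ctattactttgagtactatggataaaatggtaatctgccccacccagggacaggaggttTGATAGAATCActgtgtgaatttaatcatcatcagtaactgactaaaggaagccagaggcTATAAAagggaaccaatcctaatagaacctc
Zscan4c: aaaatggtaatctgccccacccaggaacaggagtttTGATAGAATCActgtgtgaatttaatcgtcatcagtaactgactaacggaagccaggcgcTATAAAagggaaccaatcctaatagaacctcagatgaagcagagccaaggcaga
Zscan4d: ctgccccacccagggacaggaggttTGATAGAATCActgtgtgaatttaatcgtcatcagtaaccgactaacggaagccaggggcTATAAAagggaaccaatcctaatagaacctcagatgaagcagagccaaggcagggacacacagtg

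Over the 250 bases before the start, Zscan4b and Zscan4c were identical at 94.7 percent of aligned positions, Zscan4b and Zscan4d at 97.2 percent, and Zscan4c and Zscan4d at 97.1 percent. This homeodomain core, searched on both strands, was found in 0.177 percent of all 32851 promoters of the table. Among the 13 promoters of genes at least 2-fold apart that the table holds, it was found in these 3. TATAAA was found in the same 3 of the 13 and in 12.4 percent of all promoters. The 9 letters GGTCTCTAA, the core of a motif known for mouse PRDM14, were found in 0 of the 13 and in 0.24 percent of all promoters. These matches describe letters in a window and not the binding of a factor.

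Some other genes of the 2-cell stage were higher on the same array. Usp17le, a member of a family of deubiquitinating enzymes, read 5.82 with both proteins, 4.25 with sea urchin PRDM14 and 4.33 with mouse PRDM14, against 4.07 with the empty vector, a difference of 1.75 (3.37-fold). The other 4 measured Usp17l genes differed by 0.01 to 0.27, and 2 of the 5 did not pass the filter. Tcstv1 and Tcstv3, added after the values were seen, are not kept because all 4 values of each lie below the filter value. They differed by 0.61 and 0.86. Tcstv3 read 3.88 with both proteins, 2.99 with sea urchin PRDM14 and 2.81 with mouse PRDM14, against 3.02 with the empty vector.

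Pramel19 belongs to a large family of leucine-rich repeat proteins of germ cells and early embryos. It read 5.44 with both proteins, 3.84 with sea urchin PRDM14 and 4.17 with mouse PRDM14, against 3.81 with the empty vector, a difference of 1.63 (3.09-fold). Of the 30 Pramel genes measured, 28 lay within 1.5-fold, and the family ranged from -0.32 for Pramel21 to the value of Pramel19. Only 6 of the 30 passed the filter, so most of these values are dim and say little about change. Pramel14 was the other member past 1.5-fold, at 0.74, but its values of 3.93 with both proteins and 3.19 with the empty vector are below the filter value. Pramel20, a brighter member, read 6.94 with both proteins, 6.46 with sea urchin PRDM14 and 6.63 with mouse PRDM14, against 6.42 with the empty vector. The 6 Tdpoz and 6 Obox genes measured, further families of oocyte and early embryo, all lay within 1.5-fold, with Tdpoz8 at 0.50 and Obox3 at -0.40 as their extremes. Only 1 gene of each family passed the filter, and Tdpoz8 did not, so these too are mostly readings of dim genes.

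Dppa2, a SAP domain protein that is known to switch on genes of the 2-cell stage through Dux, was the brightest of the higher genes on the array with both proteins. Its log2 value was 9.02 there, 7.66 with sea urchin PRDM14 and 7.55 with mouse PRDM14, against 7.62 with the empty vector, a difference of 1.39 (2.63-fold). The other 3 arrays thus lay close together. Its partner Dppa4 read 6.28 with both proteins, 6.27 with sea urchin PRDM14 and 5.86 with mouse PRDM14, against 5.88 with the empty vector, a difference of 0.40. Dppa1, Dppa3 and Dppa5a, which share the name but not the protein family, differed by 0.39, 0.20 and -0.26.

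Calcoco2, an autophagy receptor, read 6.96 with both proteins, 5.60 with sea urchin PRDM14 and 5.69 with mouse PRDM14, against 5.82 with the empty vector, a difference of 1.14 (2.21-fold). Predicted genes named with Gm, 4 in all, were higher by more. Gm5662 read 6.34 with both proteins, 2.42 with sea urchin PRDM14 and 2.42 with mouse PRDM14, against 2.47 with the empty vector, and a second, dimmer probe set of the gene differed by 0.55. Gm11543 read 6.56 with both proteins, 2.97 with sea urchin PRDM14 and 3.09 with mouse PRDM14, against 2.87 with the empty vector. These 2 genes were near the bottom of the range on 3 arrays, so their 14.6-fold and 12.9-fold differences are set against values close to background.

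Gm2046 read 7.83 with both proteins, 5.23 with sea urchin PRDM14 and 5.10 with mouse PRDM14, against 4.45 with the empty vector, a difference of 3.38 (10.4-fold). Gm2022 read 7.69, 5.56 and 5.98 on these arrays, against 6.17 with the empty vector, a difference of 1.52 (2.86-fold). The files give no function for these predicted genes.

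As a whole, 32 of the 50 measured genes on the list of the 2-cell stage were kept. Their median difference was 0.43, beside 0.01 over all kept genes. Of the 32, 27 differed by more than 0, beside 51.6 percent of all kept genes. Past 2-fold there were 12 higher genes and 0 lower ones, beside 0.158 percent higher and 0.0498 percent lower of all kept genes. The list holds genes that were picked from these same arrays, so it is no independent evidence of its direction. Among them are Gm5662, Gm11543, Gm2046, Gm2022, Calcoco2 and Pramel19, which all count among the 12. Several members also entered only through the array where they are high. Over all 50 measured genes of the list, without the filter, the median was 0.23. On the other arrays the median of the list was 0.04 with sea urchin PRDM14 and 0.12 with mouse PRDM14, each minus the same empty vector array.

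**Figure D2:**
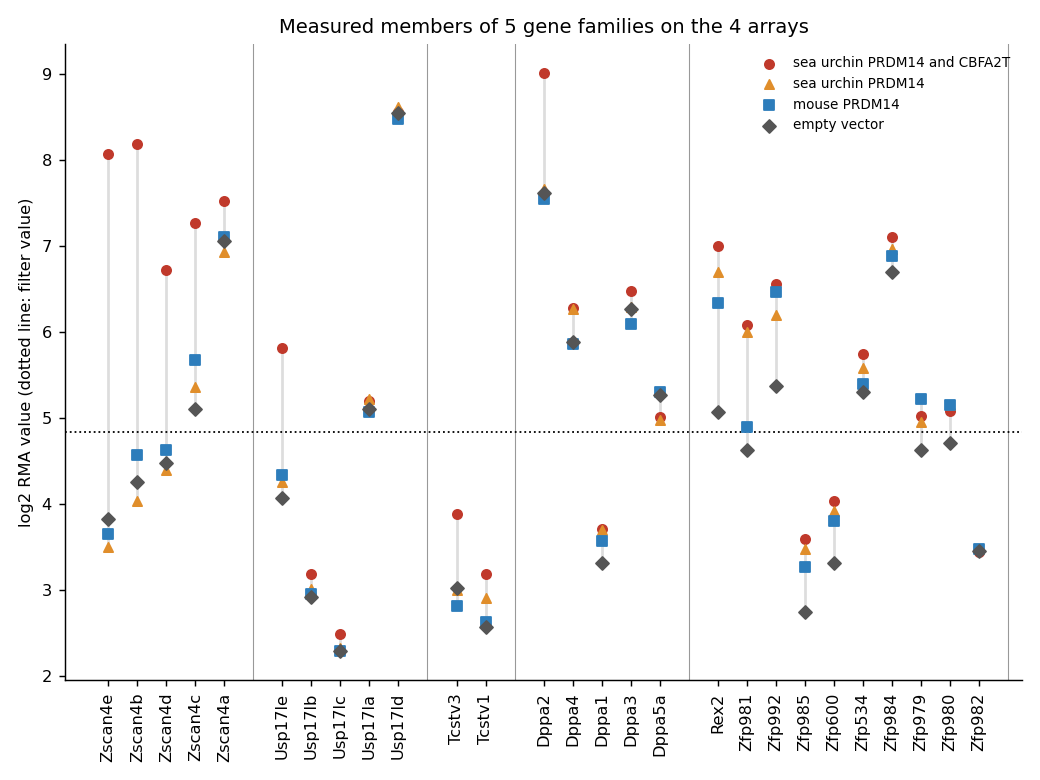
Log2 RMA values of all measured members of 5 gene families (Zscan4, Usp17l, Tcstv, Dppa and the zinc finger genes of chromosome 4) on the 4 arrays, with the filter value of 4.84 as a dotted line. Zscan4e and Zscan4b stand above 8 with both sea urchin proteins and below 4.84 on the other arrays, while Rex2 and Zfp981 are also high with sea urchin PRDM14 alone.

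Chromatin regulators of the 2-cell-like state on a separate list, which does not hold Dppa2, lay closer to equal levels. The 23 kept genes of the list of histone and chromatin proteins that act on this state had a median difference of 0.10, and none passed 1.5-fold. The largest was Nelfa, a subunit of the negative elongation factor that is known to mark 2-cell-like cells, with 7.23 with both proteins, 6.96 with sea urchin PRDM14 and 7.0 with mouse PRDM14, against 6.82 with the empty vector. Zfp809, which binds retroviral sequences for silencing, was 1.5-fold to 2-fold higher at 0.75, with 6.43 with both proteins, 6.16 with sea urchin PRDM14 and 5.96 with mouse PRDM14, against 5.69 with the empty vector.

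Zinc finger genes of a cluster on chromosome 4 formed the other group of higher genes. This cluster holds many KRAB zinc finger genes of recent origin that resemble one another. Rex2 read 7.0 with both proteins, 6.70 with sea urchin PRDM14 and 6.33 with mouse PRDM14, against 5.07 with the empty vector, a difference of 1.93 (3.81-fold). Here the empty vector array was the one that stood apart, below the 3 arrays with a PRDM14 protein.

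Zfp981 read 6.09 with both proteins, 6.0 with sea urchin PRDM14 and 4.89 with mouse PRDM14, against 4.62 with the empty vector, a difference of 1.46 (2.76-fold). Both arrays with a sea urchin protein were high for it. Zfp992 read 6.56 with both proteins, 6.19 with sea urchin PRDM14 and 6.46 with mouse PRDM14, against 5.38 with the empty vector, a difference of 1.18 (2.27-fold). Of the 10 measured genes that lie in the cluster, 7 of them kept, 9 differed by more than 0 and Zfp982 by 0.00. Probes of such similar copies may read one another's transcripts, which could not be checked. The 10 may thus not be separate measurements. Zfp985 at 0.85 and Zfp600 at 0.72 were past 1.5-fold but below the filter value on all 4 arrays, and Zfp534, Zfp984, Zfp979 and Zfp980 differed by 0.37 to 0.44. The gene list named for this cluster is a wider set of 13 measured and 8 kept genes, which also holds Zfp983 of chromosome 17 at 0.11. It had a median of 0.42 with both proteins, 0.38 with sea urchin PRDM14 and 0.35 with mouse PRDM14. These 3 medians share the empty vector array, so 1 low reading there would enter all of them.

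The 150 bases before the start of Rex2 (chr4:147021700-147021849, plus strand), Zfp981 (chr4:146514770-146514919, plus strand) and Zfp979 (chr4:147642509-147642658, minus strand) in GRCm38.p6 are shown from the RefSeq table because they are similar sequences upstream of genes with differences of 1.93, 1.46 and 0.39. Capitals mark a GGGCGG box, the GC box, on the strand shown.
Rex2: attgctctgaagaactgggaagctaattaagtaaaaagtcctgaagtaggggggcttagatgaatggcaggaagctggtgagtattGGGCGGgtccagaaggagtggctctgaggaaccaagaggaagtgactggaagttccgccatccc
Zfp981: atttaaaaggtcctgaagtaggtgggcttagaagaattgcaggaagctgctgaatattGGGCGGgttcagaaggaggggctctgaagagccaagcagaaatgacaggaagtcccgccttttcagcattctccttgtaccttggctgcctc
Zfp979: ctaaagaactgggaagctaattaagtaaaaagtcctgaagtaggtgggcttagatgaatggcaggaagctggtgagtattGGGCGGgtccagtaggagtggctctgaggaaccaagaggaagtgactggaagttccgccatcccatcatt

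Over 250 bases before the start, Rex2 and Zfp979 were identical at 98.8 percent of aligned positions, Rex2 and Zfp981 at 81.5 percent, and Zfp981 and Zfp979 at 81.1 percent. Zfp979 read 5.02 with both proteins, 4.95 with sea urchin PRDM14 and 5.23 with mouse PRDM14, against 4.63 with the empty vector. Its difference was thus smaller than that of Rex2, whose upstream sequence is almost the same. GGGCGG, searched on both strands, was found in 4 of the 13 promoters of genes at least 2-fold apart, those of Rex2, Suz12, Trh and Zfp981, and in 32.7 percent of all 32851 promoters.

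Zfp640, a further zinc finger gene, read 8.05 with both proteins, 7.68 with sea urchin PRDM14 and 7.21 with mouse PRDM14, against 7.04 with the empty vector, a difference of 1.01. Its other probe sets differed by 1.21 and 1.84, in the same direction. Over the 194 kept genes whose symbols start with Zfp or Zscan, with Rex2, 11 were higher and 0 lower by 1.5-fold or more. Of the higher ones, 8 passed 2-fold. Over all kept genes, 0.515 percent were higher and 0.307 percent lower at 1.5-fold, and 0.158 percent were higher at 2-fold. Most of the 8 were similar copies of Zscan4 or the chromosome 4 cluster. Without these 2 groups, a set chosen after the values were seen, 182 genes remained with a median of 0.01. Of these, 4 were at least 1.5-fold higher, 1 of them past 2-fold, and 0 were lower.

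Suz12 is a core subunit of Polycomb repressive complex 2, which methylates histone H3 at lysine 27 and is a known partner of PRDM14 in embryonic stem cells. It read 7.19 with both proteins, 6.96 with sea urchin PRDM14 and 5.87 with mouse PRDM14, against 6.19 with the empty vector, a difference of 1.01 (2.01-fold). Both arrays with a sea urchin protein were thus above the other 2. The 12 kept genes of this complex had a median of 0.04, and Suz12 was the only one past 1.5-fold. Of the 12, 7 differed by more than 0 and 5 by less. Beside Suz12, the extremes were the accessory subunits Epop at 0.48 and Phf19 at -0.39, both chosen after their values were seen.

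Small nucleolar RNAs guide the modification of ribosomal RNA, and 2 were at least 2-fold higher. Snord1b read 8.64 with both proteins, 8.59 with sea urchin PRDM14 and 8.48 with mouse PRDM14, against 7.48 with the empty vector, a difference of 1.16. Snord42b read 7.23 with both proteins, 7.04 with sea urchin PRDM14 and 6.82 with mouse PRDM14, against 6.17 with the empty vector, a difference of 1.05. For both, the empty vector array stood below the 3 others. The 60 kept genes of this class had medians of 0.11 with both proteins, 0.18 with sea urchin PRDM14 and 0.27 with mouse PRDM14. Each is minus the empty vector. With both proteins 5 of the 60 were at least 1.5-fold higher and 3 lower, beside 0.515 and 0.307 percent of all kept genes.

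**Figure D3:**
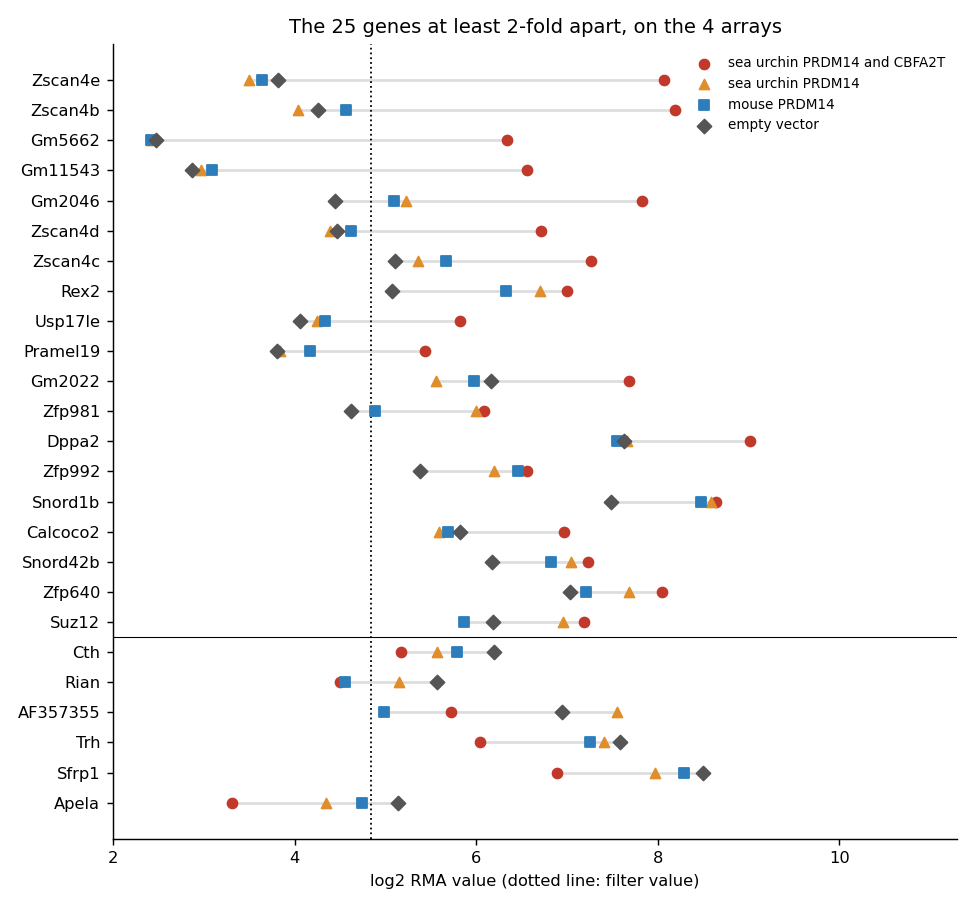
Log2 RMA values of the 25 genes at least 2-fold apart on the 4 arrays, with the 19 higher genes above the line, the 6 lower genes below it and the filter value of 4.84 dotted. Sea urchin PRDM14 and CBFA2T (red circles) is the highest array for each of the 19, and the lowest for each of the 6 except AF357355, which is lowest with mouse PRDM14.

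The 6 lower genes included 2 peptide precursors. Apela encodes the hormone ELABELA (Toddler), which signals through the apelin receptor and is expressed in pluripotent cells. It read 3.32 with both proteins, 4.34 with sea urchin PRDM14 and 4.74 with mouse PRDM14, against 5.14 with the empty vector, a difference of -1.82 (3.53-fold lower). Its only value above the filter was that of the empty vector array. Trh encodes the precursor of thyrotropin-releasing hormone. It read 6.05 with both proteins, 7.41 with sea urchin PRDM14 and 7.26 with mouse PRDM14, against 7.58 with the empty vector, a difference of -1.53 (2.89-fold lower). The receptors Aplnr and Trhr, chosen after their values were seen, lay below the filter value on all 4 arrays. They read 4.48 and 3.54 with both proteins and 4.35 and 3.48 with the empty vector. Trhr2, another receptor for thyrotropin-releasing hormone, was kept and differed by -0.065. The 18 kept genes of the list of peptide ligands and receptors had a median of -0.02. At 1.5-fold, 0 of them were higher, and Apela and Trh were lower, beside 0.515 percent higher and 0.307 percent lower of all kept genes.

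Sfrp1, a secreted protein that binds Wnt ligands, read 6.89 with both proteins, 7.97 with sea urchin PRDM14 and 8.28 with mouse PRDM14, against 8.49 with the empty vector, a difference of -1.61 (3.04-fold lower). It was 1 of 3 genes of the Wnt list past 1.5-fold, out of 35 kept genes with a median of -0.03. Over all kept genes, 0.822 percent were past 1.5-fold in either direction. Porcn, the acyltransferase that lipidates Wnt ligands, was higher by 0.62, with 7.16 with both proteins, 6.85 with sea urchin PRDM14 and 6.76 with mouse PRDM14, against 6.54 with the empty vector. Notum, which removes that lipid, was higher by 0.61, but its other probe set differed by -0.13. Of the 35 genes, 15 differed by more than 0 and 20 by less.

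Cth, the enzyme that makes cysteine from cystathionine, read 5.18 with both proteins, 5.57 with sea urchin PRDM14 and 5.79 with mouse PRDM14, against 6.19 with the empty vector, a difference of -1.02 (2.02-fold lower). It was the only gene past 1.5-fold on the list of targets of ATF4, the transcription factor of the amino acid stress response, whose 33 kept genes had a median of -0.09. The arginine transporter Slc7a1, chosen after its values were seen, came next at -0.53, with 5.52 with both proteins, 5.82 with sea urchin PRDM14 and 6.14 with mouse PRDM14, against 6.06 with the empty vector.

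The other 2 lower genes lie in the Dlk1-Dio3 imprinted region of chromosome 12, which makes noncoding RNAs from the maternal copy. Rian, a host transcript of small RNAs, read 4.51 with both proteins, 5.15 with sea urchin PRDM14 and 4.56 with mouse PRDM14, against 5.56 with the empty vector. AF357355, a small RNA gene of the region, read 5.72 with both proteins, 7.55 with sea urchin PRDM14 and 4.98 with mouse PRDM14, against 6.95 with the empty vector. Both genes were low on the same 2 arrays, those with both sea urchin proteins and with mouse PRDM14. The differences with both proteins were -1.06 and -1.23, and the 7 kept genes of the region had a median of -0.11.

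The 2-fold line had close neighbours. On the higher side Suz12, Zfp640 and Snord42b lay just inside it at 1.01, 1.01 and 1.05, and Gca, 2210409E12Rik and Cwc22 just outside it at 0.97, 0.97 and 0.96. On the lower side Cth, Rian and AF357355 lay just inside, and Gja1, Laptm5 and Dsg2 just outside at -0.93, -0.91 and -0.83.

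At 1.5-fold, 62 genes were higher, which is 0.515 percent, and 37 were lower, which is 0.307 percent, or 99 genes and 0.822 percent in all. Of the 43 genes between 1.5-fold and 2-fold higher, 34 have established symbols and 9 are predicted genes or small RNAs. Of the 31 between 1.5-fold and 2-fold lower, 24 have established symbols and 7 are predicted genes, small RNAs or receptor genes.

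Between 1.5-fold and 2-fold higher was Prmt5, the arginine methyltransferase that is a known partner of mouse PRDM14 in germ cells. It read 8.37 with both proteins, 8.15 with sea urchin PRDM14 and 8.12 with mouse PRDM14, against 7.52 with the empty vector, a difference of 0.85. The empty vector array was again the low one. Among the 24 kept genes of the list of PRDM14 partners and co-repressors it was the only one past 1.5-fold, and the median was 0.00. H2ac1, a histone H2A gene, read 6.72 with both proteins, 5.91 with sea urchin PRDM14 and 5.83 with mouse PRDM14, against 5.79 with the empty vector, a difference of 0.93.

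Cwc22, a splicing factor, was higher by 0.96, with 6.42 with both proteins, 5.44 with sea urchin PRDM14 and 5.54 with mouse PRDM14, against 5.46 with the empty vector. The same values stand at 7 of its 8 probe sets and the remaining, dimmer one differed by -0.06, so these are not 7 measurements. The RNA helicase Ddx5 was higher by 0.76, the nucleolar protein Npm1 by 0.70, the RNA-binding protein Fxr2 by 0.67 and the mRNA export factor Nxt2 by 0.62. Npm1 read 9.06 with both proteins, 8.98 with sea urchin PRDM14 and 8.46 with mouse PRDM14, against 8.36 with the empty vector.

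Fbxo15, an F-box protein used as a marker of mouse embryonic stem cells, read 6.0 with both proteins, 4.93 with sea urchin PRDM14 and 5.29 with mouse PRDM14, against 5.29 with the empty vector, a difference of 0.71. The ubiquitin pathway genes Uba1y, Klhl13, Cbl and Rnft1 were higher by 0.84, 0.83, 0.69 and 0.65, and the elongin-like gene Elobl by 0.74. Mpdu1, which acts in the use of dolichol-linked mannose for glycosylation, was higher by 0.95 and the calcium-binding protein Gca by 0.97. Further genes of this tier were Atp5h, a subunit of ATP synthase, at 0.69, the metallothionein Mt2 at 0.67, the centromere protein Cenpx at 0.66, Apol7e at 0.64, Tlcd1 at 0.63, and Pank3, which starts the synthesis of coenzyme A, at 0.62. The zinc finger genes Zfp229 and Zfp219 were higher by 0.73 and 0.61. Atp5h and Tlcd1 have a second, dimmer probe set each, at 0.20 and 0.24.

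Between 1.5-fold and 2-fold lower was Gja1 (connexin 43), which forms gap junctions between cells. It read 5.46 with both proteins, 6.40 with sea urchin PRDM14 and 5.38 with mouse PRDM14, against 6.39 with the empty vector, a difference of -0.93. It was low on the arrays with both sea urchin proteins and with mouse PRDM14. Epha2, an ephrin receptor, read 5.74 with both proteins, 6.74 with sea urchin PRDM14 and 6.11 with mouse PRDM14, against 6.55 with the empty vector, a difference of -0.81. Dsg2, a cadherin of desmosomes, differed by -0.83 and its dimmer probe set by -0.17. The receptor phosphatase Ptprk and the membrane peptidase Mme each differed by -0.67, and Cmtm7 by -0.72. On the list of cell contact genes, Gja1 and Epha2 were the 2 of 26 kept genes past 1.5-fold, both lower. Over all kept genes, 0.307 percent were lower and 0.515 percent higher at 1.5-fold. The median of the cell contact list was -0.02 with 13 genes above and 13 below 0, and its highest member, chosen after its values were seen, was the integrin Itgb5 at 0.56.

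Tdgf1, the Nodal co-receptor Cripto, read 7.58 with both proteins, 8.74 with sea urchin PRDM14 and 8.42 with mouse PRDM14, against 8.25 with the empty vector, a difference of -0.67. It was lowest on the array with both proteins. Nodal itself read 5.47 with both proteins, 5.61 with sea urchin PRDM14 and 5.57 with mouse PRDM14, against 5.89 with the empty vector, a difference of -0.42. The 17 kept genes of the Nodal list had a median of -0.11, with 13 below 0 and Tdgf1 as the only one past 1.5-fold. Of all 12042 kept genes, 5823 were below 0.

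Laptm5, a lysosomal membrane protein on the list of naive pluripotency, read 5.56 with both proteins, 6.0 with sea urchin PRDM14 and 6.08 with mouse PRDM14, against 6.47 with the empty vector, a difference of -0.91. The imprinted zinc finger gene Plagl1 differed by -0.82, but its dimmer probe set by -0.01. Lipid genes in this tier were Plin2, which coats lipid droplets, at -0.73, Nsdhl, an enzyme of cholesterol synthesis, at -0.65, and the fatty acid desaturase Scd1 at -0.60. Scd1 read 7.70 with both proteins, 7.99 with sea urchin PRDM14 and 8.46 with mouse PRDM14, against 8.30 with the empty vector. The remaining genes of this tier were Clybl at -0.78, Rabggtb at -0.72, Btbd35f17 at -0.70, the lysosomal protease Ctsc at -0.69, the ubiquitin ligase Ubr7 at -0.67, Tcta at -0.62, Cdo1, which oxidises cysteine, and the RNA-binding protein Igf2bp3, both at -0.61, Wfdc18 and the stress sensor Atf6, both at -0.60, and the telomere protein Stn1 and Tagln3, both at -0.59.

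Of the 142 kept miRNA genes, 3 were at least 1.5-fold lower and 0 were higher. Over all kept genes the shares were 0.307 percent lower and 0.515 percent higher. The 3 miRNA genes were named after their values were seen. They are shown because their mature products have different seeds. Mir290a belongs to the miRNA cluster that is abundant in mouse embryonic stem cells. The probe sets are named for the genes, so precursor and mature RNA are not separated. The mature sequences are from RefSeq (GRCm38.p6), and capitals mark bases 2 to 8, the seed.
mmu-miR-290a-3p: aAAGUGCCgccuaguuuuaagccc
mmu-miR-290a-5p: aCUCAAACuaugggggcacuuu
mmu-miR-188-5p: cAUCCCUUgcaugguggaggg
mmu-miR-188-3p: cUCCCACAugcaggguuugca
mmu-miR-3475-3p: uCUGGAGGcacaugguuugaa
mmu-miR-3475-5p: aAAUCAUGuacccccacagagg

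Mir290a, on chromosome 7, read 5.23 with both proteins, 5.62 with sea urchin PRDM14 and 5.64 with mouse PRDM14, against 5.94 with the empty vector, a difference of -0.71. Mir188, on chromosome X, read 5.55 with both proteins, 5.73 with sea urchin PRDM14 and 5.89 with mouse PRDM14, against 6.18 with the empty vector, a difference of -0.63. Mir3475, also on chromosome X, read 4.95 with both proteins, 5.25 with sea urchin PRDM14 and 5.87 with mouse PRDM14, against 5.54 with the empty vector, a difference of -0.59. All 3 were lowest on the array with both proteins, and no seed was shared among these 6 mature sequences. The median of all 142 was -0.03.

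Gene lists of pluripotency and lineage stayed near the median of all genes. The 28 kept genes of naive pluripotency had a median of 0.05, with Laptm5 as the only member past 1.5-fold, and the 25 of core pluripotency had a median of 0.01, with Dppa2 and Fbxo15 higher and Tdgf1 lower. Nanog read 9.28 with both proteins, 8.75 with sea urchin PRDM14 and 8.99 with mouse PRDM14, against 9.07 with the empty vector. Pou5f1, Sox2 and Zfp42, chosen like Nanog for being markers of these cells, differed by -0.03, -0.04 and -0.02. The 26 genes of the formative and primed epiblast had a median of -0.08 with 20 below 0, and the 22 of primitive endoderm a median of -0.08 with 18 below 0, with Nodal and Dab2 as their largest members at -0.42 and -0.34. Over all 12042 kept genes, 5823 were below 0. Trophoblast, gastrulation and neural lists had medians of -0.06, -0.03 and -0.04, with no gene past 1.5-fold. Their largest members were Tead4 at -0.40, Eomes at -0.23 and Nefl at 0.49.

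Signalling lists were likewise close to 0. The FGF and ERK list had a median of -0.06 with Epha2 as its only member past 1.5-fold, the BMP list -0.06 with Bmp8a at -0.43, and the list of LIF and STAT3 genes -0.03 with Ceacam1 at -0.29. The germ cell list had a median of 0.06 with Elf3 at -0.29, and the list of DNA methylation -0.01 with Dnmt3l at -0.40. Imprinted genes outside the Dlk1-Dio3 region had a median of 0.00 and Plagl1 as their only member past 1.5-fold. Proliferation genes had a median of 0.03 with Top2a at 0.40, p53 targets 0.02 with Tnfrsf10b at 0.55, interferon genes 0.00 with H2-K1 at 0.48, and housekeeping genes 0.01 with Canx at 0.50.

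Metabolic lists held the lowest median. Of the 16 kept genes of cholesterol synthesis, 12 were below 0, beside 5823 of all 12042 kept genes. The median of the 16 was -0.25, beside -0.02 with sea urchin PRDM14 and -0.04 with mouse PRDM14 minus the same empty vector array. Nsdhl was the only one past 1.5-fold, with 5.68 with both proteins, 6.09 with sea urchin PRDM14 and 6.31 with mouse PRDM14, against 6.34 with the empty vector. Further enzymes of the pathway, chosen after their values were seen, were Cyp51 at -0.53, Hmgcs1 at -0.50 and Fdft1, which went the other way, at 0.46. The 13 genes of sterol regulation and uptake had a median of 0.03, with Insig1 at -0.36 as the largest.

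Glycolysis and hypoxia genes had a median of -0.11 over 30 genes, with Ddit4 at -0.41 and none past 1.5-fold. Fatty acid synthesis stood at -0.03 over 13 genes, with Scd1 as the only one past 1.5-fold, and aminoacyl-tRNA synthetases at -0.06 over 17 genes, with Iars at -0.35. The list of the unfolded protein response had a median of 0.04 with Atf6 as its only member past 1.5-fold. All 10 measured genes of the mitochondrial genome, which encode subunits of the respiratory chain, were higher, by 0.20 for ND3 to 0.37 for COX3. Their median was 0.28 with both proteins, 0.17 with sea urchin PRDM14 and 0.19 with mouse PRDM14. COX3 read 9.77 with both proteins, 9.73 with sea urchin PRDM14 and 9.59 with mouse PRDM14, against 9.40 with the empty vector.

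**Figure D4:**
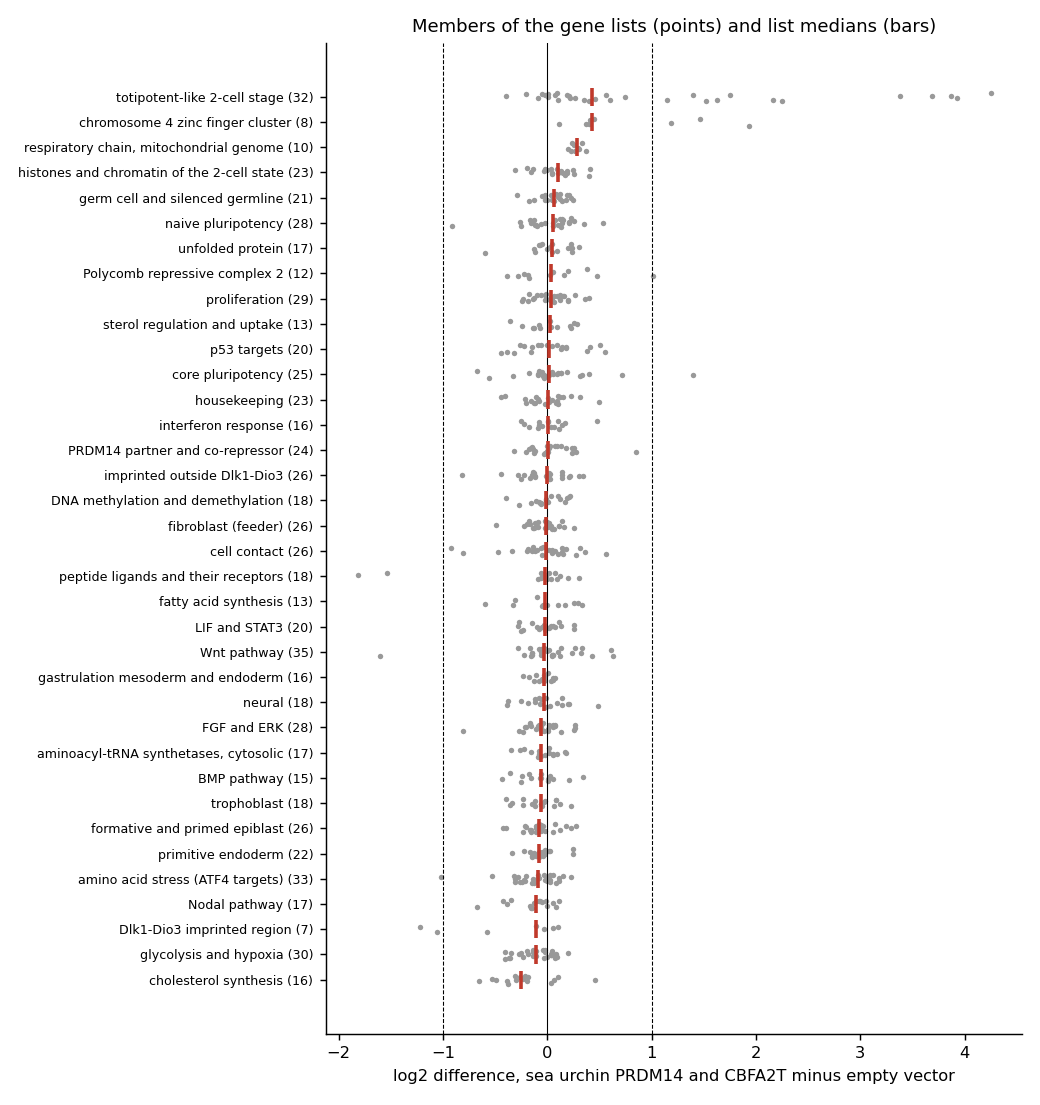
Log2 differences, sea urchin PRDM14 and CBFA2T minus empty vector, of the kept members of 36 gene lists (grey points), with the list medians (red bars), the number of kept genes in brackets and dashed lines at 2-fold. Medians run from 0.43 for the 2-cell stage down to -0.25 for cholesterol synthesis, and most lists centre within 0.12 of zero.

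The mouse genes related to the introduced proteins did not separate the arrays. Prdm14 read 5.53 with both sea urchin proteins, 5.77 with sea urchin PRDM14 and 5.57 with mouse PRDM14, against 5.71 with the empty vector, and no source used here places its probes relative to the deleted part, so it does not check the labels. Cbfa2t2 read 5.10 with both proteins, 5.53 with sea urchin PRDM14 and 5.62 with mouse PRDM14, against 5.42 with the empty vector, a difference of -0.32. Its relatives Cbfa2t3 and Runx1t1 differed by 0.03 and -0.15. The sea urchin transcripts have no probe set named for them in the annotation, so their levels were not analysed here.

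Markers of the cells present were checked as well. All 11 measured markers of mouse embryonic stem cells were at or above the filter value on both arrays, with mean log2 values of 6.67 with both proteins and 6.66 with the empty vector. Of 16 fibroblast markers, which would report the feeder cells, 11 reached it on each array, with means of 5.24 with both proteins and 5.22 with the empty vector and differences from -0.18 to 0.14. The longer fibroblast list of 26 kept genes had a median of -0.02, with Fn1 at -0.49 as its largest member. The 4 arrays had Pearson correlations across probe sets of 0.986 to 0.989, and their medians lay between 4.54 and 4.55. The pair compared here had the lowest of these correlations.

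The higher genes were unevenly spread over the chromosomes. Chromosome 11 held 1067 kept genes, which is 8.86 percent of them, and 20 of the 62 genes at least 1.5-fold higher. These include Suz12, Calcoco2, Gm11543, Snord1b and Snord42b among the genes past 2-fold, and Npm1, Ddx5, Mpdu1 and Fxr2 among the others. Its median difference was 0.07 with both proteins, 0.06 with sea urchin PRDM14 and 0.00 with mouse PRDM14. With both proteins 66.2 percent of its genes differed by more than 0, beside 51.6 percent of all kept genes. When the chromosome was cut into 10 stretches of neighbouring genes, every stretch had a median above 0, from 0.03 to 0.11.

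Chromosome 16, with 359 kept genes, had a median of 0.07 with both proteins, 0.00 with sea urchin PRDM14 and -0.01 with mouse PRDM14, and it carries Dppa2 and also Naa50, which was chosen after its values were seen. The medians of the other autosomes and of chromosome X lay between -0.02 and 0.03 with both proteins. Chromosome Y, with 4 kept genes, stood at -0.13, and the 10 mitochondrial genes, given above, at 0.28. Without chromosomes 11 and 16, 13 of the 19 higher genes and all 6 lower genes remained, the 4 Zscan4 genes, Rex2, Zfp981 and Zfp992 among them, and 40 genes were at least 1.5-fold higher, which is 0.377 percent of 10616. The part of the whole-chromosome shifts in the values of single genes on these chromosomes was not tested.

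**Figure D5:**
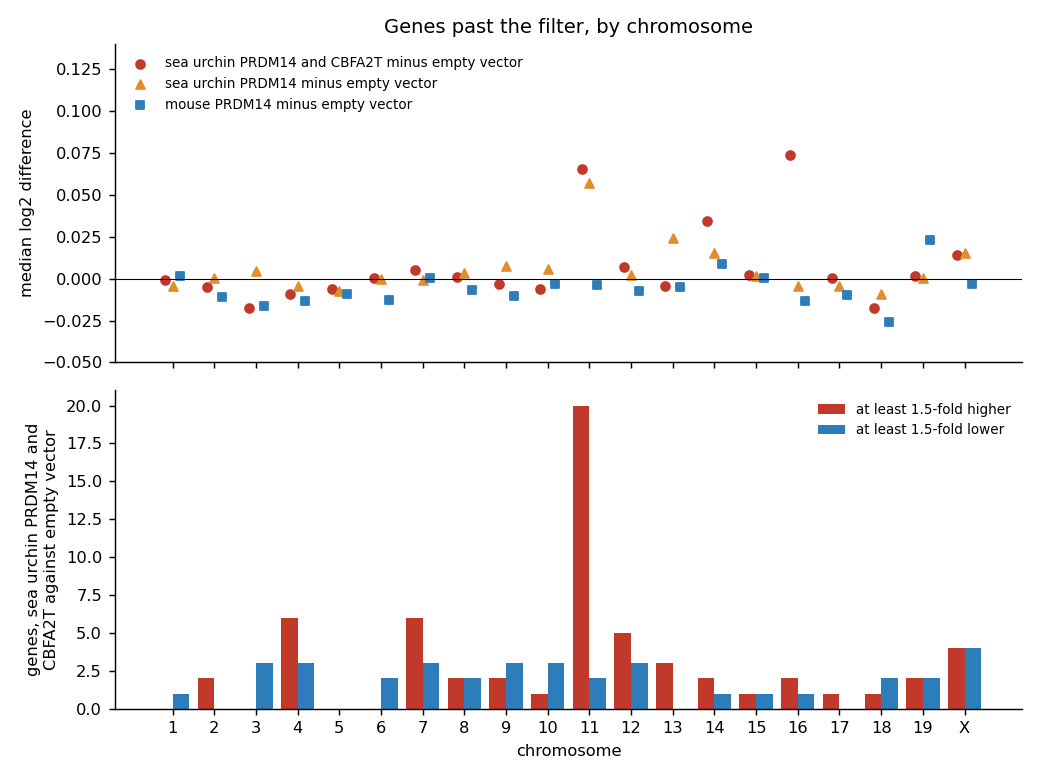
Upper panel, median log2 difference of the kept genes of each chromosome against the empty vector for the 3 arrays with a PRDM14 protein; lower panel, number of genes at least 1.5-fold higher or lower with sea urchin PRDM14 and CBFA2T. Chromosome 11 stands at 0.07 and 0.06 on the 2 arrays with a sea urchin protein and holds 20 of the higher genes, and chromosome 16 stands at 0.07 on the array with both.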

How the data were processed

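Total RNA was measured on 1 array for each of 4 groups, and the array with sea urchin PRDM14 and CBFA2T was compared with the empty vector array. Per the submitters' processing notes, the authors used RMA, which gave the deposited log2 values. The method corrects background, equalizes the distributions of the arrays and summarises probes into probe sets. It gives no detection call, a shift shared by most genes would not show, and folds of dim genes are pulled toward 1. Neither the version of RMA, nor the genome build, nor which arrays were normalized as 1 set is stated in the sources used here. Sample depth has no counterpart on arrays.

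The platform annotation paired 23521 of 41345 probe sets with 1 gene, 1814 with several and 16010 with none. Of the 23521, 23328 had an Entrez identifier in the RefSeq table (GRCm38.p6), and 0 symbols were updated. Of 22180 genes, 1082 had several probe sets. The value came from the probe set whose mean on the 4 arrays was highest, and genes whose highest value reached 4.84 were kept. Differences are log2 values of the 2 arrays subtracted, called at 2-fold and described at 1.5-fold (0.585). The calling steps recovered all planted genes on simulated data, where the planted shifts were larger than the cut and lay in genes well above the filter value. This checks the steps, and not the calls made here near the cut or the filter value. The members and the 36 gene lists were chosen with earlier results of these data known.

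Named are all genes past 2-fold; up to 25 per direction between 1.5-fold and 2-fold with established symbols (no predicted genes, small RNAs or receptor families); list members past 1.5-fold, at most 6, or else the largest; Prdm14, Cbfa2t2, Cbfa2t3 and Runx1t1; the Zscan4, Usp17l, Pramel and chromosome 4 Zfp families; and the 3 genes nearest the threshold on each side. Not all of the 30 Pramel genes are printed one by one. The Tcstv, Tdpoz, Obox and Dppa families were added after the values were seen, as were genes said to be so chosen.

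Promoter and miRNA sequences were read from RefSeq tables of GRCm38.p6, and promoters were aligned globally with Biopython 1.88. Alternatives were calling at 1.5-fold, keeping all genes, a stricter filter at 5.65 (75th percentile, 6377 genes), cyclic loess (limma 3.58.1), the mean of a gene's probe sets, every probe set by itself, and leaving out predicted genes, small RNAs and receptor families. Leaving out chromosomes 11 and 16, and a filter on the mean of the 4 arrays, were added after seeing the data. Python 3.11.15, numpy 2.4.6, pandas 2.3.3, matplotlib 3.10.9 and R 4.3.3 were used. Arrays of a further strip were not used here.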

Additional observations from a re-analysis of the deposited data

Results flagged for a closer look

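Probe sets outside the comparison, because the annotation pairs them with several genes or none, also carried differences, and no gene is named from them. Among the 1814 probe sets with several gene symbols, 893 passed the filter, and 32 of these (3.58 percent) were at least 2-fold higher with sea urchin PRDM14 and CBFA2T than with the empty vector, while 0 were at least 2-fold lower. The largest difference was 4.47. Of the 32, 2 hold Zscan4 symbols, at 6.68 and 7.84 with both proteins against 3.18 and 3.36 with the empty vector, and 16 hold Pramel symbols, with differences of 1.16 to 2.28. A further 10 hold symbols of the predicted genes from Gm4301 to Gm4340, at 7.02 to 8.93 with both proteins against 4.85 to 5.76 with the empty vector, and 1 holds zinc finger genes of chromosome 4, at 9.45 with both proteins against 8.27 with the empty vector. Probe sets of similar copies may share probes, so they are not separate measurements.

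Among the 16010 probe sets with no gene symbol, 5567 passed the filter, and 104 (1.87 percent) were at least 2-fold higher and 51 (0.916 percent) at least 2-fold lower, with differences from 3.81 to -2.67. What these probe sets measure was not analysed here.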

How the results depend on the processing

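With 1 array per group, nothing below measures replicate error. The count of 19 higher genes was 62 at 1.5-fold, and the count of 6 lower genes was 37. Without the filter 21 genes were higher, the extra ones D13Ertd608e and Gm2035. The stricter filter left 18 higher, without Pramel19, and 4 lower, without Apela and Rian. Cyclic loess left 18, without Zfp640, and the mean of a gene's probe sets left 19. Every probe set counted by itself gave 22 higher calls, with Tmed10 as an extra gene. Leaving out predicted genes, small RNAs and receptor families left 13 higher and 5 lower. Leaving out chromosomes 11 and 16 left 13 higher and 6 lower. With the filter on the mean of the 4 arrays, 14 were higher, without Gm11543, Gm5662, Pramel19, Usp17le and Zscan4e, and 5 lower, without Apela. Under the stricter filter the list medians moved to 1.14 for the 2-cell stage (21 genes) and -0.34 for the Dlk1-Dio3 region (4 genes). The median of the chromosome 4 zinc finger cluster moved to 1.18 (5 genes). Fewer genes of each were kept. This filter also reads the highest of the 4 values, so genes that are high on 1 array stay in. The larger medians are thus no added evidence. The other 33 list medians moved by less than the spread across genes under this filter. Without any filter the median of the 2-cell stage list fell from 0.43 to 0.23 over 50 genes, a drop about as large as that spread. With the mean of probe sets, Gm5662 stood at 2.21, Zfp640 at 1.35, Atp5h at 0.44, Tlcd1 at 0.44, Notum at 0.24, Plagl1 at -0.41 and Dsg2 at -0.50. Of the 36 list medians, 14 had the other sign under some alternative. These medians lay between -0.04 and 0.05 as reported and between -0.08 and 0.04 under those alternatives, so they show no direction. The 98 single-gene differences that were recomputed kept their sign, but most of the alternatives could not change it. A filter keeps or drops a gene and leaves its difference as it is. The mean of probe sets alters only genes with several probe sets. For genes with 1 probe set, only cyclic loess could have changed the sign. No paired analysis was possible because each group has 1 array and the labels give no replicate numbers.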
